A study of Mus musculus with 9 samples.

Results

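The genes described are 8 mouse genes of the oncofetal Lin28, Igf2bp and Hmga programme, Lin28a, Lin28b, Trim71, Igf2bp1, Igf2bp2, Igf2bp3, Hmga1 and Hmga2, out of 33495 genes in the table of counts. They were chosen by name and not by their values. In 7 cases the name column of the table equals the gene's symbol, and Lin28a stands there under its older name Lin28 with the identifier ENSMUSG00000050966. RNA was sequenced from mouse embryonic stem (ES) cells of the RF8 line that carried 1 of 3 transfected constructs: Nanog with the L122A change, which the series title counts among homeodomain mutants (L122A); wild-type Nanog (WT); or enhanced green fluorescent protein (EGFP), the control. Each transfectant was grown in 3 cultures: retinoic acid (RA) at 5 µM without leukaemia inhibitory factor (LIF); no LIF and no RA; and the routine medium with 1000 units of LIF per ml. All 9 libraries come from transfected cells whose routine medium was KO-DMEM with fetal calf serum and puromycin. There was 1 library for each combination and no replicate. The columns of the LIF libraries carry a tag that is in no label, and they were given to that culture because the tags of the other cultures are in the labels. Neither the time in each culture, nor the promoter of the constructs, nor whether a transfectant was a clone or a pool is stated in the sources used here. RA is an inducer of ES cell differentiation, LIF sustains self-renewal, and Nanog is a homeodomain factor of the pluripotent state.

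Lin28a and Lin28b are RNA-binding proteins of early embryos that block the maturation of the let-7 family of microRNAs, and let-7 in turn represses mRNAs that carry matches to its seed in their 3′ untranslated regions (UTRs). The mRNAs of Lin28, Trim71, the Igf2bp proteins and Hmga2 are themselves well known let-7 targets, so the family is often described as 1 developmental switch that is on in fetal cells and tumours and off in most adult tissue. Igf2bp1, Igf2bp2 and Igf2bp3 bind and stabilise mRNAs, Igf2 mRNA among them. Trim71 is a TRIM-NHL RNA-binding protein that represses mRNAs in ES cells, and Hmga1 and Hmga2 are architectural chromatin proteins that bind AT-rich DNA.

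The mature let-7 sequences and the target sites are shown because they are the element that joins these genes. The 9 mature mouse let-7 and miR-98 5p sequences in RefSeq share 1 seed, bases 2 to 8, printed in capitals in 4 of them (GRCm38.p6, 5′ to 3′).
mmu-let-7a-5p: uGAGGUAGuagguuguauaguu
mmu-let-7d-5p: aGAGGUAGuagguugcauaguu
mmu-let-7g-5p: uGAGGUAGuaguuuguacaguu
mmu-miR-98-5p: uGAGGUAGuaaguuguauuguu

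Lin28 proteins bind the let-7 precursor at a GGAG element in its terminal loop. The letters GGAG lie 3′ of the 5p arm in 9 of the 12 let-7 family hairpins, as in that of let-7g, where they are in capitals, and were not found there in that of let-7b.
Mirlet7g hairpin: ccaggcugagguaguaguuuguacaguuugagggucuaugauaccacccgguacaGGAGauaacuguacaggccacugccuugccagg
Mirlet7b hairpin: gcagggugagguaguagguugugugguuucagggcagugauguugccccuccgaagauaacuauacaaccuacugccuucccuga

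The complement of the seed, CTACCTC, was searched for on the transcript strand in the longest annotated 3′ UTR of each gene (GENCODE M21, GRCm38). The genes are known as a let-7 target group, so their sites are shown as a description. All 8 genes hold at least 1 such site, against 8.95% of 20996 genes with a 3′ UTR, and the 8-letter form CTACCTCA, found in 3.02% of genes, was present in 7 of the 8, Hmga1 being the exception. Lin28b, Trim71, Igf2bp1 and Hmga2 hold 4 sites each, a number reached by 12 of the 20996 genes. Lin28a holds 2, and Igf2bp2, Igf2bp3 and Hmga1 hold 1 each. The UTRs are long, from 1183 bases in Hmga1 to 6337 bases in Igf2bp1, and among genes with a UTR at least as long as that of Hmga2 (3014 bases) 0.291% hold 4 or more sites. The matching share, of genes with as long a UTR and at least as many sites, was 0.552% for Lin28b, 0.687% for Trim71 and 0.804% for Igf2bp1. It was 4.58% for Lin28a, and 18.9%, 20.5% and 16.1% for Igf2bp2, Igf2bp3 and Hmga1, so 1 site in such a UTR is not rare. One site of each gene is printed below as 28 bases of the transcript strand with the match in capitals. The rows used for counting Lin28a, Trim71 and Hmga2 are shorter (1877, 5190 and 1409 bases) than these UTRs alone, so their counts do not cover the whole UTR.
Lin28a chr4:134005187-134005214 minus: agtgcacagcctgttgaaCTACCTCAtt
Lin28b chr10:45381020-45381047 minus: ttcacccgggcgggaagtCTACCTCAtg
Trim71 chr9:114512470-114512497 minus: tacaacattgcctaagtcCTACCTCAgc
Igf2bp1 chr11:95961776-95961803 minus: agtgctgtgcgaagtaaaCTACCTCAag
Igf2bp2 chr16:22059471-22059498 minus: aaaacacacaaataaaagCTACCTCAgg
Igf2bp3 chr6:49086785-49086812 minus: acgtgcatttttactcaaCTACCTCAgg
Hmga1 chr17:27563274-27563301 plus: ttctcctctgttcacaaaCTACCTCtgg
Hmga2 chr10:120364222-120364249 minus: ggcgccgacattcaatttCTACCTCAgc

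**Figure D1:**
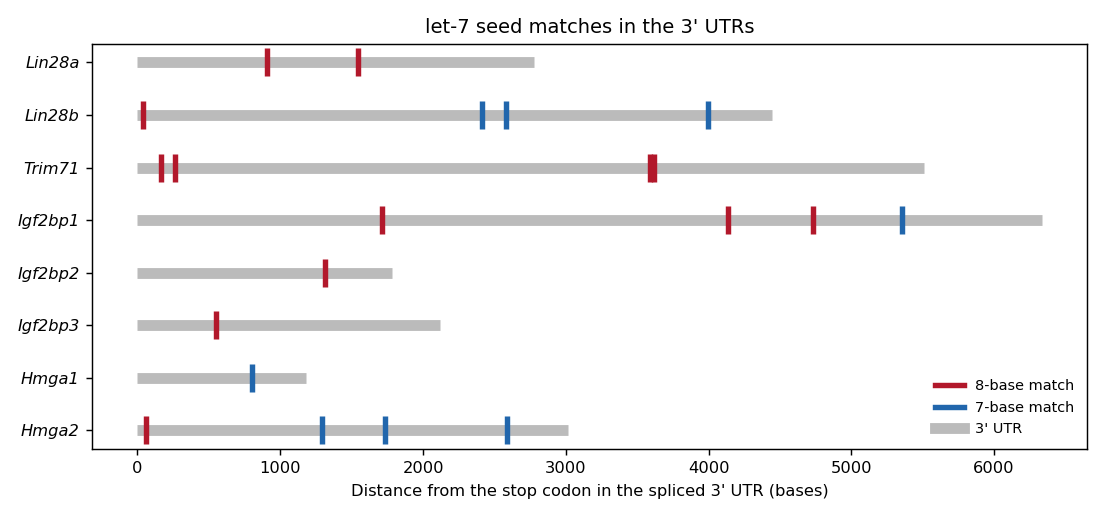
Matches to the let-7 seed in the longest annotated 3′ UTR of each of the 8 genes, with the distance from the stop codon in bases on the horizontal axis; grey bars are UTRs, red ticks 8-base and blue ticks 7-base matches. Lin28b, Trim71, Igf2bp1 and Hmga2 have 4 matches each, and the Hmga1 match is the 7-base form.

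Library totals ran between 24166395 and 28714988 counts. Levels of 1 gene across libraries are given as CPM (counts scaled to a fixed library total, adjusted by trimmed-mean factors), and levels of different genes are set against each other only as FPKM, which is per length. All 8 genes passed the filter for testing (at least 1 CPM in at least 3 libraries), as did 13996 of the 33495. Nanog, the transfected gene, stood at 259, 130 and 239 CPM in the L122A RA, no-LIF and LIF libraries and at 195, 168 and 223 CPM in the WT libraries, against 0.871, 290 and 384 CPM in the EGFP libraries. The counts do not separate endogenous from transfected Nanog. The summed level of 7 ES cell markers was 561, 114 and 15.7 CPM in the L122A, WT and EGFP RA libraries and between 1863 and 5260 CPM in the other 6, where the labelled cell type had all of its markers above 0. In the RA libraries 8 extraembryonic endoderm markers summed to 134, 382 and 130 CPM (6.43 to 46.1 elsewhere). Sums of 406 CPM over 8 fibroblast markers (7.23 to 46.7 elsewhere) and 219 CPM over 7 neural markers (36.4 to 94.7 elsewhere) set EGFP RA apart, and 145 CPM over 6 mesoderm markers set EGFP no-LIF apart (5.51 to 14.8 elsewhere). Nes alone gave 186 CPM of the EGFP RA neural sum, so that sum rested mostly on a single gene and does not show a neural signature. T gave 105 CPM of the EGFP no-LIF mesoderm sum. In bulk RNA, fewer cells of a type and less RNA per cell cannot be told apart.

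The culture comparisons asked what RA and LIF withdrawal did across the 3 transfectants. With RA, Lin28a and Hmga1 fell and Hmga2 and Igf2bp3 rose relative to LIF, while the other 4 genes did not pass the test. These 4 of 8 calls stand beside 48.2% of all genes tested, so the number called is near the background. Paralogs differed: Hmga2 rose where Hmga1 fell, and Lin28b did not pass the test where Lin28a fell. The test was an additive edgeR quasi-likelihood model of culture and transfectant with Benjamini-Hochberg adjustment over 13996 genes. A small p thus means that the average shift was large beside the departure from additivity across transfectants. It does not mean that the shifts were equal in size, or that replicate cultures would repeat them.

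**Figure D2:**
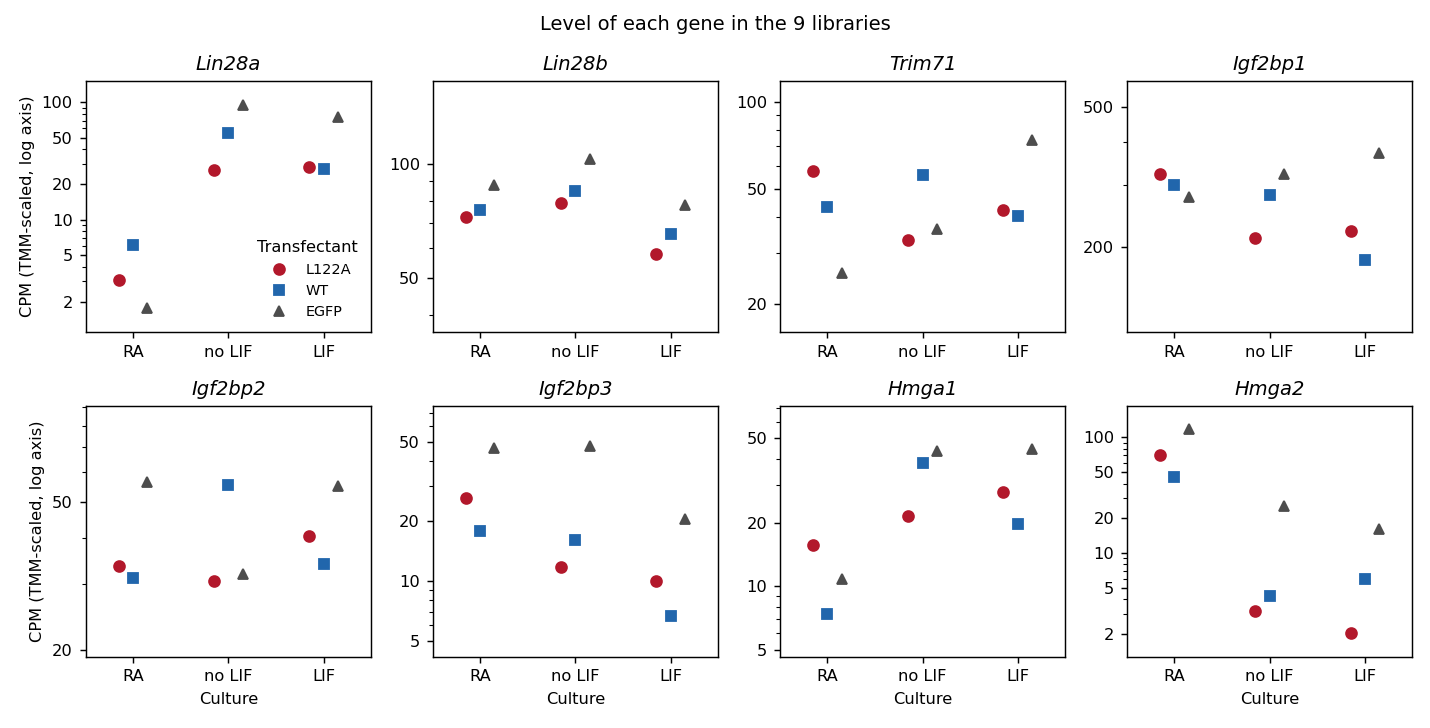
Level of each gene in CPM (log axis, TMM-scaled) in the RA, no-LIF and LIF cultures, 1 point per library, with red circles for L122A, blue squares for WT and grey triangles for EGFP. Lin28a lies below 6.2 CPM and Hmga2 above 45 CPM in the 3 RA libraries, while Lin28b stays between 57.8 and 103 CPM in all 9.

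Lin28a (mm9 chromosome 4, 133559245 to 133574756, minus strand) is the Lin28 paralog known for its high level in ES cells and its use in reprogramming. It had 109, 195 and 57 counts in the L122A, WT and EGFP RA libraries, or 3.06, 6.10 and 1.77 CPM. It had 26.3, 55.3 and 94.9 CPM without LIF and 28.2, 26.9 and 75.7 CPM with LIF, in the same order of transfectants. All 3 RA libraries lay below all 6 others. Averaged over transfectants it fell 10.7-fold with RA relative to LIF (log2 fold change -3.41, SE 0.59, edgeR adjusted p = 0.00287) and 13.9-fold relative to no LIF (-3.80, SE 0.60, adjusted p = 0.00224). Within transfectants the fall relative to LIF was 9.21-fold in L122A (exact 95% Poisson interval 7.51 to 11.4), 4.41-fold in WT (3.73 to 5.22) and 42.7-fold in EGFP (32.9 to 56.6). These intervals, here and below, cover counting error of single libraries only. The ES marker sum was lowest in the same 3 libraries, and its part in the result was not tested.

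Lin28b (chromosome 10, 45096439 to 45206201, minus strand), the other paralog, is known for blocking let-7 in fetal tissues and tumours. Its level was 72.5, 75.5 and 88.1 CPM with RA, 78.8, 84.7 and 103 CPM without LIF, and 57.8, 65.5 and 78.1 CPM with LIF in L122A, WT and EGFP. The cultures overlapped, and within each culture EGFP was highest and L122A lowest. The difference between RA and LIF was 0.24 on the log2 scale (SE 0.15, edgeR adjusted p = 0.227, 95% interval -0.18 to 0.65). It passed the test under 2 alternatives that do not use the trimmed-mean scaling (0.62, adjusted p = 0.0306 with total counts; 0.54, adjusted p = 0.0452 with limma on FPKM). Total counts move the median log2 fold change of all genes for RA against LIF by 0.38.

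Trim71 (chromosome 9, 114420393 to 114473487, minus strand), the mouse homologue of the worm gene lin-41 in which let-7 regulation was first described, did not pass the test in any of the 3 culture comparisons. With RA it had 57.6, 43.1 and 25.6 CPM in L122A, WT and EGFP, without LIF 33.3, 55.8 and 36.3 CPM, and with LIF 42.4, 40.3 and 73.6 CPM. EGFP was the lowest of the 3 transfectants with RA and the highest with LIF. In EGFP cells the RA level was 2.87-fold lower than the LIF level (2.65 to 3.11) and the no-LIF level 2.03-fold lower (1.88 to 2.19). In L122A cells the RA level was 1.36-fold the LIF level (1.26 to 1.47), and in WT cells the ratio was 1.07 (0.980 to 1.17).

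Igf2bp1 (chromosome 11, 95818477 to 95867254, minus strand) had the highest FPKM of the 3 Igf2bp genes in every library. Its level was 324, 301 and 279 CPM with RA, 213, 281 and 324 CPM without LIF, and 222, 184 and 372 CPM with LIF in L122A, WT and EGFP. The cultures overlapped and no culture comparison passed (RA against LIF, log2 fold change 0.28, SE 0.25, edgeR adjusted p = 0.372). In single libraries RA was 1.46-fold the LIF level in L122A (1.41 to 1.51) and 1.64-fold in WT (1.58 to 1.70), and 1.33-fold lower than LIF in EGFP (1.30 to 1.37).

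Igf2bp2 (chromosome 16, 22059082 to 22163372, minus strand), the family member known for its persistence in adult tissue, ran between 30.7 and 56.6 CPM over the 9 libraries. It had 33.6, 31.1 and 56.6 CPM with RA, 30.7, 55.6 and 32.0 CPM without LIF, and 40.4, 34.1 and 54.9 CPM with LIF in L122A, WT and EGFP. No culture separated from the others. RA against LIF differed by -0.11 on the log2 scale (SE 0.31, edgeR adjusted p = 0.782, 95% interval -0.96 to 0.74).

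Igf2bp3 (chromosome 6, 49035227 to 49164956, minus strand), a fetal mRNA-binding protein that reappears in many cancers, was the Igf2bp gene called in the culture comparisons. With RA it had 26.2, 17.9 and 46.3 CPM in L122A, WT and EGFP, without LIF 11.8, 15.95 and 47.4 CPM, and with LIF 9.93, 6.64 and 20.5 CPM. In each transfectant RA was above LIF, although the RA and LIF groups overlapped because the EGFP LIF library was higher than WT RA. The gene rose 2.53-fold with RA relative to LIF (log2 fold change 1.34, SE 0.26, edgeR adjusted p = 0.00420). Single-library ratios were close to each other, 2.64 in L122A (2.28 to 3.07), 2.69 in WT (2.23 to 3.27) and 2.26 in EGFP (2.06 to 2.49). Relative to no LIF the difference was 0.40 (SE 0.26, adjusted p = 0.242). Without the transfectant term the RA to LIF difference was 1.28 and no longer passed (adjusted p = 0.121).

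Hmga1 (chromosome 17, 27693565 to 27700519, plus strand) had 15.6, 7.41 and 10.9 CPM with RA, 21.6, 38.4 and 43.4 CPM without LIF, and 28.0, 19.7 and 44.6 CPM with LIF in L122A, WT and EGFP. All 3 RA libraries lay below the other 6. It fell 2.63-fold with RA relative to LIF (log2 fold change -1.39, SE 0.37, edgeR adjusted p = 0.0141) and 3.08-fold relative to no LIF (-1.62, SE 0.37, adjusted p = 0.00889). The call against LIF was lost on leaving out the WT RA, EGFP RA or EGFP LIF library (adjusted p = 0.0768, 0.0509 and 0.0510), and that against no LIF on leaving out WT RA (0.0618). It was also lost with total counts (-1.01, adjusted p = 0.0921 against LIF; -1.23, adjusted p = 0.0572 against no LIF) and, against LIF, with limma on FPKM (-0.95, adjusted p = 0.0748). The level of Hmga1 is uncertain where the authors' counting could split reads between near-identical sequences.

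Hmga2 (chromosome 10, 119800334 to 119913344, minus strand), a fetal chromatin protein and a classic let-7 target, had the highest increase of the 8 genes. With RA it had 2508, 1456 and 3788 counts, or 70.3, 45.5 and 118 CPM, in L122A, WT and EGFP. Without LIF it had 3.14, 4.24 and 25.4 CPM, and with LIF 2.03, 6.002 and 16.3 CPM. All 3 RA libraries lay above the other 6, and in each culture EGFP was highest. It rose 12.6-fold relative to LIF (log2 fold change 3.65, SE 0.51, edgeR adjusted p = 0.00121) and 10.7-fold relative to no LIF (3.42, SE 0.51, adjusted p = 0.00169). The single-library ratio to LIF was 34.6 in L122A (25.8 to 47.6), 7.58 in WT (6.30 to 9.20) and 7.24 in EGFP (6.58 to 7.97). Of the genes that overlap it, 1700006J14Rik on the opposite strand had between 1 and 28 counts per library, and no source used here says how strand was handled. Lin28a is overlapped in the same way by AL670680.2, with 0 to 4 counts. The extraembryonic endoderm marker sum was also highest in the 3 RA libraries and the fibroblast sum in EGFP RA, and their part in the result was not tested.

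LIF withdrawal without RA called none of the 8 genes, beside 0.0714% of all genes (10; 0.0143% higher and 0.0572% lower). At an unadjusted p below 0.05 there were 2 of the 8 in edgeR and DESeq2, beside 8.73% and 9.92% of all genes. These were Igf2bp3 (log2 fold change 0.94, SE 0.27, edgeR adjusted p = 0.347) and Lin28b (0.40, SE 0.15, adjusted p = 0.488), and in limma there was 1, Igf2bp3, beside 6.95%. None passed in DESeq2 or limma after adjustment. Igf2bp3 was higher without LIF in WT (2.40-fold, 1.97 to 2.94) and EGFP (2.32-fold, 2.10 to 2.55), and the ratio in L122A was 1.19 (0.984 to 1.44). Lin28b was 1.29-fold to 1.36-fold higher in each transfectant. RA against no LIF called 3 of the 8, Hmga2, Lin28a and Hmga1, beside 44.5% of all genes (22.6% higher and 21.9% lower). By a rule of at least 2-fold and at least 5 CPM in the higher library, RA against LIF had 2 of the 8 higher and 1 lower in L122A (37.9% of all genes in either direction), 2 higher and 2 lower in WT (47.3%) and 2 higher and 3 lower in EGFP (40.4%), with Igf2bp3 and Hmga2 the genes that were higher in each. No LIF against LIF had none in L122A (6.09%), Lin28a and Igf2bp3 higher in WT (10.3%), and Igf2bp3 higher and Trim71 lower in EGFP (13.9%). RA against no LIF had 3 of the 8 in each transfectant, beside 43.4% of all genes in L122A, 38.4% in WT and 38.4% in EGFP.

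**Figure D3:**
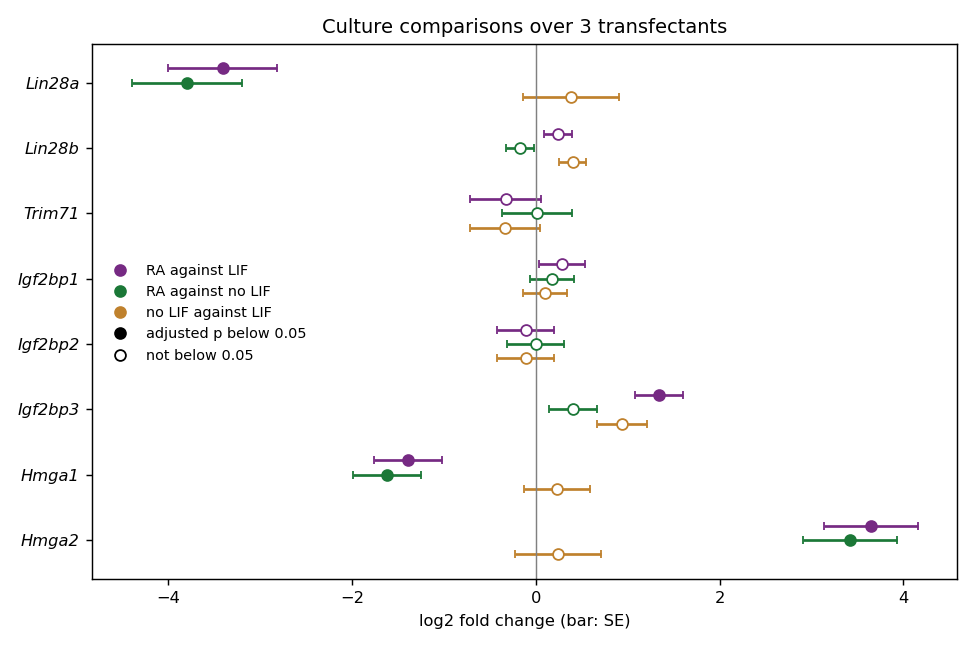
Log2 fold change of each gene between cultures over the 3 transfectants (points, with bars of 1 SE), purple for RA against LIF, green for RA against no LIF and orange for no LIF against LIF, with filled points at an adjusted p below 0.05. Filled points lie at -3.41 and -3.80 for Lin28a, 1.34 for Igf2bp3, -1.39 and -1.62 for Hmga1, and 3.65 and 3.42 for Hmga2.

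The makeup of each family was compared per length. Lin28b made up 83.1%, 72.0% and 91.1% of the summed Lin28 FPKM in the L122A, WT and EGFP RA libraries and between 17.6% and 38.3% in the other 6. Hmga2 made up 85.8%, 89.2% and 93.6% of the Hmga FPKM with RA and between 8.87% and 44.0% elsewhere. The Lin28b to Lin28a ratio was 14.2-fold higher with RA than in the other libraries (mean log2 ratio 2.34 ± 1.0 against -1.49 ± 0.63, SD, n = 3 and 6, exact permutation p = 0.0238, adjusted p = 0.0476 over 4 ratios). The Hmga2 to Hmga1 ratio was 32.4-fold higher (3.16 ± 0.64 against -1.85 ± 1.15, exact permutation p = 0.0238, adjusted p = 0.0476). The two-sided p of 0.0238 is the smallest that 3 against 6 libraries allow, and libraries of 1 transfectant are not independent cultures. These ratios come from the same libraries as the single-gene changes above, and the permutation does not take transfectant into account, so their p-values add no independent evidence. Against the 3 LIF libraries alone the differences were 3.81 and 5.06 on the log2 scale, where the smallest exact p is 0.1.

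Igf2bp1 held between 55.3% and 75.3% of the Igf2bp FPKM in all 9 libraries, and no switch of the leading paralog was seen in this family. The Igf2bp3 to Igf2bp1 ratio differed by 0.66 on the log2 scale between RA and the other libraries (exact permutation p = 0.190, adjusted p = 0.254) and the Igf2bp2 to Igf2bp1 ratio by -0.26 (p = 0.476, adjusted p = 0.476, exact permutation). Igf2bp3 reached 30.2% and 29.9% of the family in the EGFP RA and EGFP no-LIF libraries, against 8.74% to 19.03% in the other 7. Across families, Hmga2 had 62.6, 39.5 and 93.6 FPKM with RA in L122A, WT and EGFP, and Igf2bp1 43.8, 39.8 and 33.7 FPKM. Per length Hmga2 was thus above Igf2bp1 in the L122A and EGFP RA libraries and level with it in WT RA.

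**Figure D4:**
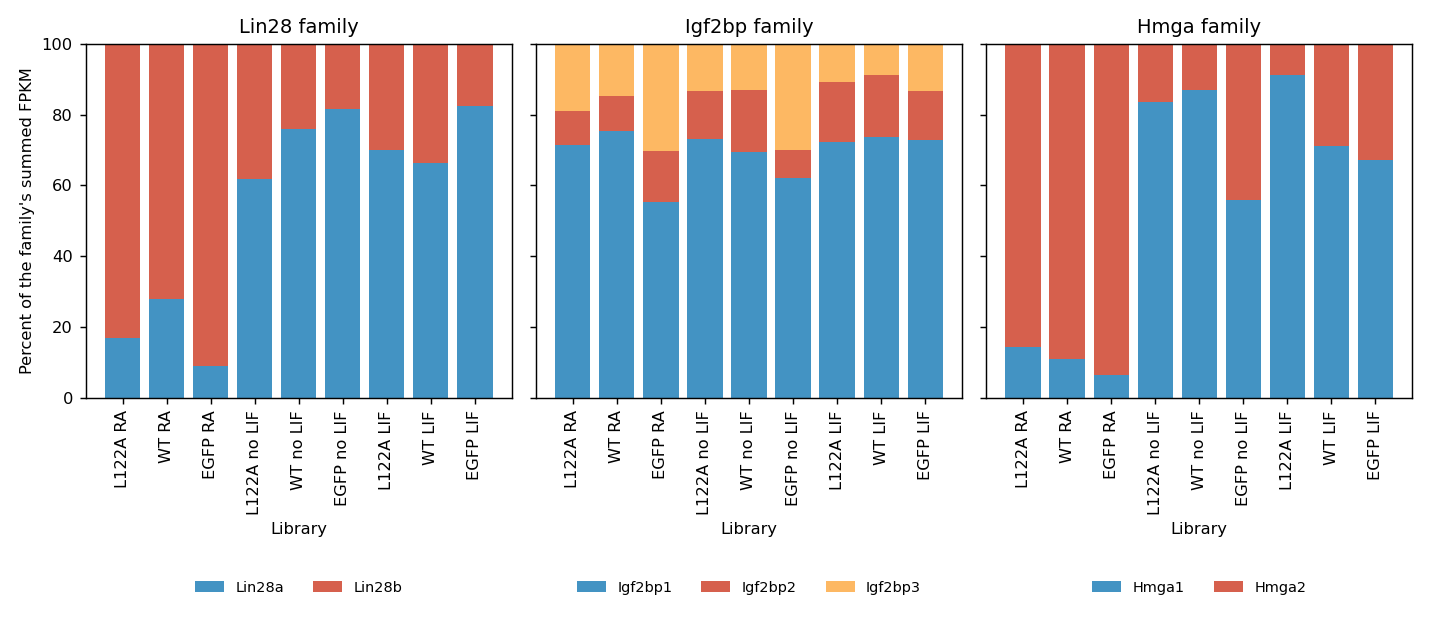
Share of each paralog in the summed FPKM of its family (percent) in the 9 libraries, RA libraries on the left of each panel. Lin28b and Hmga2 hold most of their family in the 3 RA libraries, and Igf2bp1 holds between 55.3% and 75.3% in every library.

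The transfectant comparisons asked what Nanog WT and L122A changed relative to EGFP across the cultures. Igf2bp3 fell in L122A cells, by 1.26 on the log2 scale (SE 0.27, edgeR adjusted p = 0.0456), and was the 1 gene of 8 called there, beside 2.88% of all genes (0.893% higher and 1.99% lower). The call sat near the threshold: leaving out any library but EGFP RA ended it (adjusted p between 0.0688 and 0.159), as did total counts, limma, the use of L122A and EGFP libraries alone and the model without culture (adjusted p = 0.0856, 0.0757, 0.147 and 0.959). In WT cells none of the 8 was called, beside 0.322% of all genes (0.0357% higher and 0.286% lower). There the log2 fold change was -1.53 for Igf2bp3 (SE 0.27, edgeR adjusted p = 0.0670) and -1.85 for Hmga2 (SE 0.47, adjusted p = 0.170), the 2 genes with an unadjusted p below 0.05 in edgeR, DESeq2 and limma, beside 11.9%, 13.6% and 10.9% of all genes. DESeq2 called both in WT and in L122A after adjustment, where it called 614 and 1438 of all 13996 genes, many more than edgeR. Hmga2 in L122A cells stood at -2.14 (SE 0.49, edgeR adjusted p = 0.0597).

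The level of Igf2bp3 was below EGFP in all 6 Nanog libraries. With RA it was 1.77-fold lower in L122A (1.63 to 1.92) and 2.59-fold lower in WT (2.35 to 2.86), without LIF 4.02-fold (3.50 to 4.65) and 2.97-fold lower (2.65 to 3.34), and with LIF 2.06-fold (1.77 to 2.42) and 3.09-fold lower (2.56 to 3.75). Hmga2 was also below EGFP in all 6 libraries: with RA 1.68-fold in L122A (1.59 to 1.76) and 2.59-fold in WT (2.43 to 2.75), without LIF 8.11-fold (6.24 to 10.7) and 5.995-fold (4.87 to 7.45), and with LIF 8.02-fold (5.90 to 11.1) and 2.71-fold (2.22 to 3.34). The gap for Hmga2 was thus smallest with RA in L122A. In WT the intervals with RA and with LIF overlapped, so counting error alone leaves their order unresolved. The RA response of Hmga2 in the Nanog transfectants minus that in EGFP was 1.0 on the log2 scale (SE 0.79, edgeR adjusted p = 0.653). EGFP libraries held the highest fibroblast marker sum in each culture (406, 26.5 and 27.9 CPM with RA, without LIF and with LIF), and its part in these values was not tested.

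Lin28a differed from EGFP in opposite directions by culture. With LIF it was 2.69-fold lower in L122A (2.46 to 2.94) and 2.82-fold lower in WT (2.57 to 3.10), and without LIF 3.60-fold (3.28 to 3.97) and 1.72-fold lower (1.61 to 1.84). With RA it was 1.72-fold higher in L122A (1.24 to 2.42) and 3.44-fold higher in WT (2.55 to 4.71). The RA response of the Nanog transfectants minus that of EGFP was 2.82 on the log2 scale (SE 0.76, edgeR adjusted p = 0.310). It passed in DESeq2 (adjusted p = 0.0213) and in edgeR without the filter on low counts (2.88, adjusted p = 1.01e-05). Those settings called 264 and 684 genes, against 1 in the main fit, while the size of the Lin28a difference hardly moved. Averaged over cultures, Lin28a against EGFP was -1.09 in L122A (SE 0.55, adjusted p = 0.344) and -0.36 in WT (SE 0.55, adjusted p = 0.850). Without the EGFP RA library the L122A value was -1.72 and passed (adjusted p = 0.0176).

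Trim71 also lay above EGFP with RA and below it with LIF. With RA it was 2.25-fold higher in L122A (2.07 to 2.44) and 1.68-fold higher in WT than in EGFP (1.54 to 1.84), and with LIF 1.74-fold (1.61 to 1.87) and 1.82-fold lower (1.68 to 1.98). Without LIF its ratio to EGFP was 0.916 in L122A (0.828 to 1.01) and 1.54 in WT (1.41 to 1.67), unlike Lin28a, which was lower in both. The difference in RA response was 1.80 (SE 0.49, edgeR adjusted p = 0.295). It passed in edgeR without the filter on low counts (1.86, adjusted p = 0.00710), a setting that called 684 genes. Igf2bp1 had 1.16-fold and 1.08-fold the EGFP level with RA in L122A and WT, and was 1.67-fold and 2.02-fold lower with LIF. Its difference in response was 1.04 (SE 0.38, adjusted p = 0.402). None of the 8 genes passed this test in edgeR, beside 0.00714% of all genes (1, Nanog itself), and 3 of them, Lin28a, Trim71 and Igf2bp1, had an unadjusted p below 0.05 in edgeR, DESeq2 and limma, where 11.1%, 12.1% and 13.5% of all genes did. In the matching test of the response to LIF withdrawal, none of the 8 and 0.0% of all genes passed in edgeR, with Trim71 at an unadjusted p below 0.05 (1.12, SE 0.49, adjusted p = 0.625) beside 7.98% of all genes. DESeq2 and limma called none of the 8 in that test, with Trim71 at an unadjusted p below 0.05 in DESeq2 (8.3% of all genes) and no gene of the 8 in limma (7.09%).

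**Figure D5:**
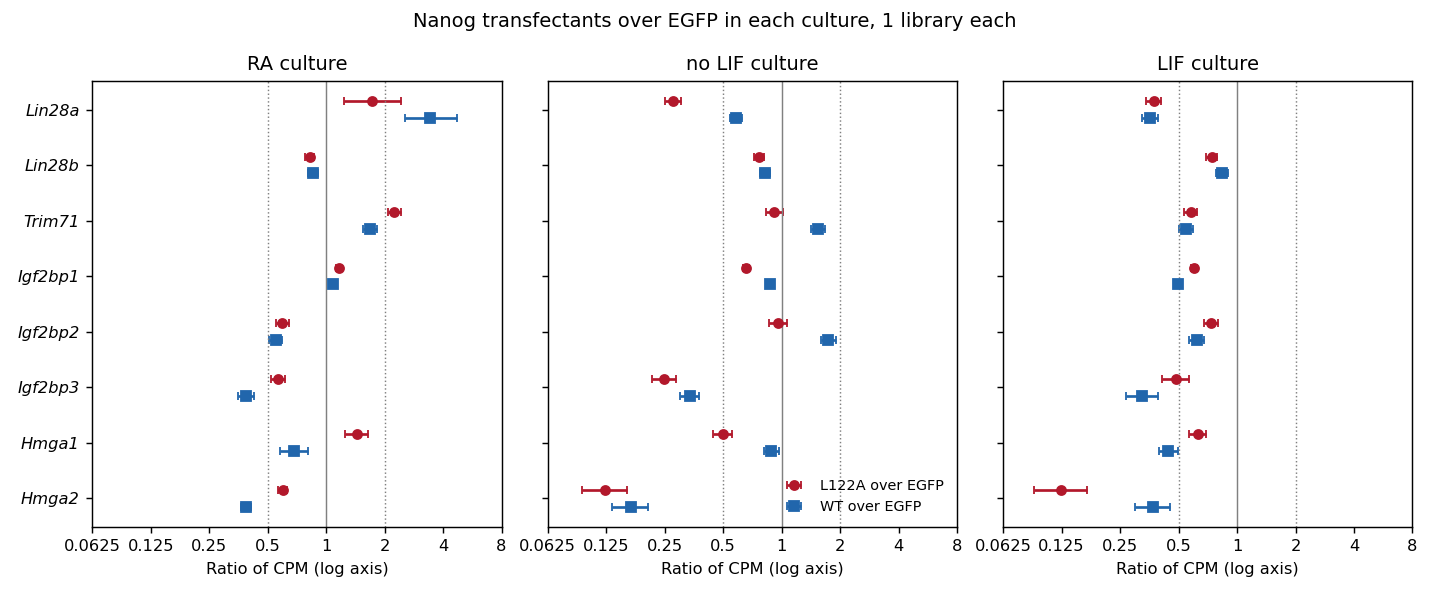
CPM ratio of L122A (red circles) and WT (blue squares) over EGFP in each culture on a log axis, with exact 95% Poisson intervals that cover counting error only and dotted lines at 2-fold. Lin28a and Trim71 lie above 1 with RA and below 1 with LIF, and Igf2bp3 and Hmga2 lie below 1 in all 3 cultures.

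By the same rule of 2-fold, WT LIF against EGFP LIF had the most differences, 5 of the 8 genes lower (Lin28a, Igf2bp1, Igf2bp3, Hmga1 and Hmga2) beside 10.4% of all genes at that level in either direction. L122A against EGFP had 3 lower with LIF (Lin28a, Igf2bp3 and Hmga2; 9.73% of all genes), 4 lower without LIF (the same 3 genes and Hmga1; 20.4%) and 1 higher with RA (Trim71; 19.5%). WT against EGFP had 2 lower without LIF (Igf2bp3 and Hmga2; 16.2%), and with RA the same 2 lower and Lin28a higher (11.4%). Lin28b and Igf2bp2 did not reach 2-fold against EGFP in any of the 6 Nanog libraries.

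The 2 Nanog constructs were also set against each other. L122A against WT called none of the 8 genes and 0.0% of all genes in edgeR, with no member at an unadjusted p below 0.05 in edgeR, DESeq2 or limma, beside 4.39%, 5.27% and 3.34% of all genes. The log2 differences ran between -0.72 for Lin28a (SE 0.54) and 0.28 for Hmga1 (SE 0.36). In single cultures 1 gene each passed 2-fold: Hmga1 was 2.11-fold higher in L122A with RA (1.81 to 2.46), Lin28a 2.10-fold lower without LIF (1.90 to 2.33), and Hmga2 2.96-fold lower with LIF (2.08 to 4.26). These stand beside 7.33%, 8.14% and 3.66% of all genes in those pairs. Lin28a with RA was 1.995-fold lower in L122A (1.57 to 2.55), just short of the line.

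The other genes of the pathway were taken from lists chosen by function, with earlier results of these data known. Of 17 let-7 processing genes and Lin28 cofactors, 7 rose and 1 fell with RA relative to LIF (median log2 fold change 0.51, against 0.01 over all genes tested; 24.5% of all genes rose and 23.8% fell). Tut4 and Tut7, the uridylyltransferases that act with Lin28 on let-7 precursors, had the largest increases among genes of the list that averaged 5 CPM or more. Tut4 had 155, 152 and 143 CPM with RA in L122A, WT and EGFP, against 53.0, 43.3 and 66.2 CPM with LIF (log2 fold change 1.48, SE 0.21, edgeR adjusted p = 0.00121), and Tut7 57.9, 74.0 and 87.2 CPM against 25.4, 28.1 and 28.3 CPM (1.40, SE 0.17, adjusted p = 0.000685). Ago4, an Argonaute gene below that level, rose by 1.96 (adjusted p = 0.0172), Dicer1, Ddx17, Ago2 and Ago3 were the other genes that rose, and Tarbp2, a Dicer partner, fell (-0.58, SE 0.18, adjusted p = 0.0304).

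Of the 12 let-7 family hairpin genes in the table, 7 had any count and 1 passed the filter, and their counts summed to 4 to 54 per library. These libraries therefore do not measure let-7. Of 22 genes known as let-7 targets other than the 8, 9 rose and 3 fell with RA relative to LIF (median 0.29), beside 24.5% of all genes higher and 23.8% lower. Relative to no LIF the median of this list was 0.05, against 0.02 over all genes tested. Thbs1, a secreted matrix glycoprotein, had 18, 27.5 and 306 CPM with RA in L122A, WT and EGFP, against 0.316, 0.590 and 25.8 CPM with LIF (log2 fold change 4.96, SE 0.68, edgeR adjusted p = 0.00118). It was also lower in both Nanog transfectants than in EGFP (L122A -5.81, SE 0.70, adjusted p = 0.00980; WT -4.65, SE 0.64, adjusted p = 0.0416). Irs2, an insulin receptor substrate, rose as well (3.88, SE 0.72, adjusted p = 0.00338), while the cell cycle gene Ccnd1 (-2.53, SE 0.43, adjusted p = 0.00230) and the Myc family gene Mycn (-1.67, SE 0.46, adjusted p = 0.0190) fell. Relative to no LIF the rises were smaller, 3.12 for Thbs1 (SE 0.62, edgeR adjusted p = 0.00537) and 2.19 for Irs2 (SE 0.66, adjusted p = 0.0280). In EGFP cells without LIF, Thbs1 had 102 CPM and Irs2 14.6 CPM, against 16.4 CPM of Irs2 with RA. The 25 tested genes with 3 or more CTACCTC sites, the 4 members with 4 sites among them, had a median log2 fold change with RA of 0.72, with 32.0% called higher and 4.0% lower. The share called higher was about the same in the 1176 genes with 1 site (32.7% higher, 16.5% lower, median 0.29) and the 144 with 2 sites (32.6%, 13.2% and 0.22). Over all 12665 tested genes with a 3′ UTR the values were 0.09, 26.2% and 22.4%, and over the 11320 with no site 0.05, 25.4% and 23.2%. The median UTR was 4466 bases in the group with 3 or more sites and 1059 bases in the group with none, and the part of UTR length in the difference was not tested.

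Of 13 tested genes of the insulin-like growth factor axis, to which the mRNA that names the Igf2bp proteins belongs, 11 rose with RA relative to LIF and none fell (median 2.32). Over all genes 24.5% rose and 23.8% fell. Igf2, the fetal growth factor, had 58.6, 211 and 640 CPM with RA in L122A, WT and EGFP, against 3.38, 3.30 and 52.5 CPM with LIF (log2 fold change 4.66, edgeR adjusted p = 0.000657). H19, the imprinted noncoding RNA beside Igf2, had 389, 511 and 958 CPM against 7.53, 3.79 and 44.3 CPM (5.80, SE 0.64, adjusted p = 0.000573), and Igfbp5, an Igf-binding protein, rose too (4.98, SE 0.59, adjusted p = 0.000615). Igf2 was lower in L122A than in EGFP (-4.14, SE 0.52, adjusted p = 0.0116) and stood at -3.17 in WT (SE 0.51, adjusted p = 0.0590). EGFP was the highest transfectant for Igf2 in every culture, as it was for Hmga2 and Igf2bp3. H19 in L122A was lower than in EGFP as well (-2.70, SE 0.57, adjusted p = 0.0494), as was Igfbp3 (-2.73, SE 0.55, adjusted p = 0.0440).

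Of 6 other oncofetal genes tested, a list that shares H19 and Igf2 with the previous one, 4 rose with RA relative to LIF (median 3.76), beside 24.5% of all genes. Among them were the paternally expressed gene Dlk1 (4.72, SE 0.42, edgeR adjusted p = 0.000282) and Gpc3, a cell-surface proteoglycan (2.86, adjusted p = 0.00456). Among 7 other high mobility group genes, 3 fell and 1 rose, beside 23.8% of all genes lower and 24.5% higher. Hmgb2, a chromatin protein of dividing cells, had 342, 242 and 140 CPM with RA in L122A, WT and EGFP, against 482, 588 and 445 CPM with LIF (-1.14, SE 0.25, adjusted p = 0.00710). Hmgn2 (-0.85) and Hmgb1 (-0.76) also fell (adjusted p = 0.00912 and 0.00963), and Hmgn3 rose (1.30, adjusted p = 0.0153). Of the Trim71 target mRNAs, Cdkn1a, the cell cycle inhibitor p21, rose with RA (2.11, SE 0.31, adjusted p = 0.00135) and Rbl1 fell (-0.71, SE 0.25, adjusted p = 0.0436). Of the TRIM-NHL relatives of Trim71, Trim32 rose (1.26, SE 0.29, adjusted p = 0.00811) and Trim2 fell (-1.61, SE 0.57, adjusted p = 0.0469). In RA against no LIF the let-7 processing list again had 7 higher and 1 lower, the let-7 targets 7 and 2, and the Igf axis 10 and 1.

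The 8 genes did not share 1 pattern over the 9 libraries. The root mean square difference between centred log2 CPM profiles was smallest for Lin28b and Igf2bp1 (0.272) and largest for Lin28a and Hmga2 (3.55). Among the 10046 genes that averaged 5 CPM or more, the nearest profiles, given for 7 of the 8, were those of Pdzd4 and Bspry for Lin28a (0.623 and 0.672), Tmx3 and Tbc1d19 for Lin28b (0.0920 and 0.107), Espl1 and Atad5 for Trim71 (0.163 and 0.166), and Usp10 and Ddx3x for Igf2bp1 (0.102 and 0.103). For Igf2bp2 they were Mkx and Ddx54 (0.214 and 0.218), for Igf2bp3 Nnat and Pea15a (0.253 and 0.289), and for Hmga2 F3 and Bmp1 (0.394 and 0.467). Bspry had 0.449, 0.782 and 0.747 CPM with RA in L122A, WT and EGFP, and between 2.53 and 16.9 CPM in the other 6 libraries. F3, the gene of tissue factor, had 57.8, 63.8 and 186 CPM with RA in L122A, WT and EGFP, and between 2.35 and 25.4 CPM in the other 6 libraries, a range close to that of Hmga2.

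RefSeq promoters (GRCm38.p6, 250 bases before to 50 after the start) were found for 7 of the 8 genes, Igf2bp1 being without an entry. Each was searched on both strands for the octamer ATTTGCAT, the E-box CACGTG and the nuclear receptor core motif AGGTCA. The GC box GGGCGG, the TATA box TATAAA and the inverted CCAAT box ATTGG were searched for as well, and their matches are not marked. The promoters of Hmga1 and Igf2bp3 are shown as those of a gene that fell and a gene that rose with RA relative to LIF and that hold an octamer or an E-box. Igf2bp3 did not pass for RA against no LIF. Hmga1 holds the octamer, the letters bound by Pou5f1 and other POU factors, which are present in 1.74% of 32851 promoters. Igf2bp3 holds 2 E-boxes, a sequence bound by Myc among others, and Lin28b holds 1, against 7.15% of promoters with any. AGGTCA, which 16.3% of promoters hold, was not found in the 7. Capitals mark the octamer or the E-box, and a match is a description of letters only.
Hmga1 promoter, chr17:27556324-27556623 plus: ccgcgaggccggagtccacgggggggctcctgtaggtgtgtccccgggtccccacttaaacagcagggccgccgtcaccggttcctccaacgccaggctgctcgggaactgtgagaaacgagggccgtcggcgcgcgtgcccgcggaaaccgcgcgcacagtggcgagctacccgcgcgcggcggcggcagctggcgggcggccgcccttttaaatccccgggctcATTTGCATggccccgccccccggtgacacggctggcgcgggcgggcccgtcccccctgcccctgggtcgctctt
Igf2bp3 promoter, chr6:49214905-49215204 minus: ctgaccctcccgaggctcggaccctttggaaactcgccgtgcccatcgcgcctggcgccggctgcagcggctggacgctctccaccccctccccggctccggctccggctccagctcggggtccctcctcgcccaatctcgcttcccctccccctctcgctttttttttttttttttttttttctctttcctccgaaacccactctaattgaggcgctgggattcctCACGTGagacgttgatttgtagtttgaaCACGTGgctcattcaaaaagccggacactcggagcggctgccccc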

How the data were processed

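The authors deposited 1 table with read counts and FPKM for 33495 genes in 9 libraries; the submitters' processing notes name TopHat2 2.0.11 and mm9. The deposited FPKM equal the count per length and per library total, within 1% for 100.0% of genes above 5 FPKM. No source used here names the counting program, strand setting or filters. The columns of the LIF libraries were assigned by elimination, and the L122 columns were taken as L122A.

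Counts were tested in edgeR 4.0.16 (R 4.3.3) with TMM factors, genes of at least 1 CPM in at least 3 libraries (13996) and a quasi-likelihood fit of transfectant plus culture, with 4 residual degrees of freedom. A second model (3 residual degrees of freedom) compared the response to culture in the 2 Nanog transfectants with that in EGFP. Adjusted p-values are Benjamini-Hochberg over all genes tested, with a threshold of 0.05. The 95% intervals of log2 fold changes come from the SE and a t distribution with the residual degrees of freedom of the model. The edgeR p was not computed from these intervals, and the 2 can differ. With 1 library per combination the spread is the departure from additivity, which may be technical or biological. Paralog ratios of FPKM (pseudocount 0.01) were compared with a two-sided exact permutation test in scipy 1.17.1. Ratios of single libraries have exact 95% Poisson intervals for counting error alone. Scripts were tested on simulated data. Alternatives were RLE factors, total counts, no filter, DESeq2 1.42.0, limma 3.58.1 on log2(FPKM + 1), only the levels compared, no second factor and each library left out. An alternative for Hmga1 added after seeing the data is not reported here.

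The genes, lists and tests were chosen with earlier results of these data known. Genes outside the 8 were named by nearest profile and, in each list, as the 2 called genes with the largest change each way among those that averaged 5 CPM or more, and the additional called list genes and the pathway genes in the text were chosen after their values were seen. Newer symbols were matched for 28692 identifiers. Gene coordinates are mm9 and sequences GRCm38, and the builds were not mixed.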

Additional observations from a re-analysis of the deposited data

Results flagged for a closer look

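Among the 8 genes, 3 had a response to RA with 1 sign in both Nanog transfectants and the other sign in EGFP, as did 14.8% of 13687 tested genes with counts in all 6 libraries. The log2 ratio of RA over LIF for Trim71 was 0.44 in L122A and 0.10 in WT, against -1.52 in EGFP (edgeR adjusted p of the difference in response = 0.295). For Igf2bp1 it was 0.54 in L122A and 0.71 in WT, against -0.42 in EGFP (adjusted p = 0.402). For Igf2bp2 it was -0.26 in L122A and -0.13 in WT, against 0.04 in EGFP (adjusted p = 0.879), where the ratio in EGFP was 1.03 (exact 95% Poisson interval 0.963 to 1.10) and that in WT 0.914 (0.828 to 1.01), so that counting error alone leaves the sign of both unresolved. None of these differences passed the test. Nanog itself did, with a response to RA in the Nanog transfectants that was 8.75 above that in EGFP on the log2 scale (SE 0.50, adjusted p = 0.000498).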

How the results depend on the processing

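No paired analysis was possible because the labels give no replicate numbers and each combination has 1 library; the additive model itself compares cultures within transfectants and transfectants within cultures. Lin28a and Hmga2 passed for RA against LIF and against no LIF in all 9 fits that left out 1 library, and Igf2bp3 for RA against LIF in all 9. The direction of genes with small differences depended on the setting, and the cause was not tested. All values below are log2 fold changes unless called counts.

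With total counts, RA against LIF was 0.06 for Trim71 and 0.24 for Igf2bp2, RA against no LIF 0.24 for Lin28b and 0.38 for Igf2bp2, L122A against EGFP -0.07 for Trim71 and the RA response 0.16 for Igf2bp2. With limma these were 0.05, 0.22, 0.21, 0.37, -0.01 and 0.13. RA against no LIF for Igf2bp2 was 0.03 without the filter, 0.01 with only the 2 levels compared and 0.04 with no second factor, and for Trim71 -0.06 with only the 2 levels. With no second factor L122A against EGFP was -0.02 for Trim71, and L122A against WT -0.01 for Hmga1 and 0.44 for Hmga2.

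Of the 8 genes, WT against EGFP called 1 without the filter, 2 in DESeq2 and 2 with only the 2 levels. L122A against EGFP called 2 in DESeq2 and 0 with total counts, limma, only the 2 levels or no second factor. The RA response called 2 without the filter and 1 in DESeq2. The number at 2-fold was 2 for L122A RA over WT RA with RLE factors, 3 and 0 for L122A over WT without and with LIF with total counts, and 5 for L122A RA over L122A no LIF with total counts. Against LIF libraries alone the Lin28 and Hmga ratios differed by 3.81 and 5.06 (exact permutation adjusted p = 0.133).

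Counts over all genes moved as well. No LIF against LIF called 10 genes, against 2 with total counts, 37 without the filter, 278 in DESeq2, 4 in limma, 86 with only the 2 levels and 0 with no second factor. WT against EGFP called 45, against 22, 138, 614, 19, 86 and 0. L122A against EGFP called 403, against 253 with total counts, 1438 in DESeq2, 217 in limma, 79 with only the 2 levels and 0 with no second factor. L122A against WT called 0, against 1 without the filter, 51 in DESeq2 and 3 with only the 2 levels. The RA response called 1, against 684 without the filter, 264 in DESeq2 and 20 in limma, and the response to LIF withdrawal 0, against 403 and 120 without the filter and in DESeq2.

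Leaving out 1 library, RA against LIF ranged between -0.77 and 0.17 for Trim71 and -0.35 and 0.11 for Igf2bp2, and RA against no LIF between -0.42 and 0.39 and between -0.35 and 0.47. No LIF against LIF ranged between -0.02 and 0.88 for Lin28a, -0.65 and 0.23 for Trim71, -0.12 and 0.39 for Igf2bp1, -0.58 and 0.22 for Igf2bp2, -0.19 and 0.59 for Hmga1 and -0.29 and 0.63 for Hmga2. WT against EGFP called 0 to 2 of the 8 and ranged between -1.05 and 0.11 for Lin28a and -0.28 and 0.64 for Trim71. L122A against EGFP called 0 to 3 and ranged between -0.40 and 0.58 for Trim71 and -0.83 and 0.04 for Hmga1. L122A against WT ranged between -0.56 and 0.24 for Trim71, -0.22 and 0.13 for Igf2bp1, -0.45 and 0.27 for Igf2bp2, -0.21 and 0.69 for Hmga1 and -1.15 and 0.14 for Hmga2. The RA response ranged between 0 and 0.18 for Lin28b and -0.04 and 0.55 for Igf2bp3, and the response to LIF withdrawal between -0.39 and 0.68 for Lin28a, -0.08 and 0.10 for Lin28b, -0.10 and 0.73 for Hmga1 and -1.34 and 0.22 for Hmga2. The Lin28 ratio ranged between 3.32 and 4.31, the Hmga ratio between 4.67 and 5.32 and the Igf2bp3 to Igf2bp1 ratio between 0.24 and 0.98. The Igf2bp3 to Igf2bp1 ratio passed without EGFP no LIF (0.92, exact permutation adjusted p = 0.0476). The Lin28 and Hmga ratios passed there too, and not without any other library, where the adjusted p was 0.0714 or 0.143 and fewer libraries limit the smallest p. Over all genes the ranges of calls were 4067 to 6682 for RA against LIF, 3499 to 6309 for RA against no LIF, 0 to 43 for no LIF against LIF, 0 to 144 for WT and 24 to 565 for L122A against EGFP, 1 to 173 for the RA response and 0 to 35 for the response to LIF withdrawal. The RA response could not be fitted without EGFP RA or EGFP LIF.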
